A study of Drosophila melanogaster with 23 samples.

Results

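The Engrailed and Iroquois stretches of the *Drosophila melanogaster* genome which hold Polycomb-regulated developmental genes, were followed in Hi-C maps, in which the frequency of ligation between 2 DNA segments reports how often they lay close together in the nucleus. They were defined by position, as every 10-kb bin of 2 windows in the dm6 assembly. These windows were chosen with earlier results of these data known. The en-inv window, 2R 11430001 to 11600000, has 17 bins and holds *engrailed* (*en*) and *invected* (*inv*). The Iroquois window, 3L 12550001 to 12750000, has 20 bins and holds *araucan* (*ara*), *caupolican* (*caup*) and *mirror* (*mirr*). Together they make up 37 of the 15850 bins of the maps and carry the 5 member genes. All 37 bins were measured in every map.

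The series asked how HP1, a protein that binds methylated histone H3, and the methylation of that histone shape the folding of the genome when the zygotic genome is first activated, and whether HP1 is still needed in a differentiated cell line. HP1-KD embryos (5 libraries) came from mothers carrying a short hairpin against HP1 (Bloomington #33400) driven in the female germ line by a Gal4 line (Bloomington #7063), which was also used for the other 3 embryo groups. HP1-rescue embryos (3 libraries) carried the knockdown together with a pUASP::Flag-HA-HP1 transgene, and H3K9M embryos (2 libraries) carried pUASP::H3.3K9M, a mutant histone in which a lysine that is normally methylated is replaced by methionine. Control embryos (7 libraries) came from Bloomington #36303. Per the study, HP1-KD and HP1-rescue embryos also carry an inversion on 2L, an arm that holds neither window. All embryos were hand-sorted at stage 5, so the HP1-KD map holds only embryos that developed that far, and the hairpin used left residual HP1. S2 cells, a cultured *Drosophila* line, were treated with HP1 dsRNA 1, HP1 dsRNA 2 or, as control, a dsRNA against GST (2 libraries each).

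Polycomb proteins keep developmental genes silent where they are not needed. Their complexes are recruited by DNA elements, mark the surrounding chromatin by trimethylation of a lysine on histone H3 that HP1 does not read, and fold such stretches into compact domains. *en* and *inv* encode neighbouring homeodomain proteins that define the posterior compartment of each segment, and *ara*, *caup* and *mirr* encode the homeodomain proteins of the Iroquois complex, which pattern the eye, the thorax and the wing veins. Hi-C carries no histone marks, so the Polycomb state of the windows was not checked here.

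Libraries were pooled by group before deposit, so each group is 1 map and no test between groups could be made. The maps held 62789664 to 296227687 whole contacts in embryos and 34356718 to 53457650 in S2 cells on the 5 long arms. Intervals given below are 95% intervals for counting error only. They do not include the spread between embryo collections or cultures, and a map averages all nuclei, so fewer nuclei with a fold and a weaker fold in every nucleus cannot be told apart. DpnII, the enzyme used, cuts at GATC, which occurred 34.3 times per bin in the en-inv window, against 28.8 ± 12.3 (SD over 2038 bins) in the interior of 2R, and 25.2 times per bin in the Iroquois window, against 27.3 ± 12.6 (SD over 2286 bins) in the interior of 3L.

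The windows are wider than the stretches the member genes occupy. In the en-inv window the members lie between *E(Pc)* (11452043 to 11465270), which encodes the Enhancer of Polycomb protein, and *tou* (11577485 to 11616045), which encodes a chromatin-remodelling factor. *inv* runs from 11474465 to 11509695 on the plus strand and *en* from 11524006 to 11528210 on the minus strand, so that their annotated starts fall in bins 50 kb apart. *Prip*, *qvr* and lncRNA:CR43771 fill the rest of the window to the left of *E(Pc)*, and snoRNA:Psi28S-1180 lies within *tou*. In the Iroquois window *ara* (12580672 to 12596018), *caup* (12609631 to 12621798) and *mirr* (12693639 to 12710249) are all on the plus strand. They lie between *sowah* (12537513 to 12572542) and *SmD1* (12733364 to 12734611), which encodes a spliceosomal protein. Between *caup* and *mirr* are lncRNA:CR32111, lncRNA:CR43431, lncRNA:CR44553 and lncRNA:CR44552, and to the right of *SmD1* follow *Ptp69D*, a receptor tyrosine phosphatase gene, then *CG32112*, *CG32109* and *Klc*.

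Near the right edge of the Iroquois window all 7 maps had a local minimum of contact across 12730000, at the bin that holds the start of *SmD1*. *SmD1* and *Ptp69D* are transcribed away from each other there, and 333 bases separate their annotated starts. The 300 bases before the start of *Ptp69D*, 3L:12734645-12734944 on the plus strand of the RefSeq assembly with dm6 coordinates, are printed because they lie at the drop that all maps shared. Capitals mark the 5-base core CGATA of the motif of the boundary protein BEAF-32, on either strand.

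Ptp69D: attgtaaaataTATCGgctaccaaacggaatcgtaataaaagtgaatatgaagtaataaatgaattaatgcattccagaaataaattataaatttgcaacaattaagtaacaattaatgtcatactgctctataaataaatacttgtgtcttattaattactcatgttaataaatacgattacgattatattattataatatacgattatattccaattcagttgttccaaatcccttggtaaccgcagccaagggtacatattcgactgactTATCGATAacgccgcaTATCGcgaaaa

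CGATA occurred 4 times in this stretch, with 2 of the matches overlapping in the run TATCGATA. At least 1 match was present in 46.4% of the 300-base windows before 13865 protein-coding gene starts, and 4 or more in 5.30%. GAGAG, which GAGA factor binds, had no match there. It had 2 matches before *ara*, 6 before *caup* and 4 before *mirr*, with overlapping matches counted separately. At least 1 match was present in 29.0% of all such windows, and the share with as many matches was not taken. GCCAT, the core of the motif of the Polycomb recruiter Pho, had 2 matches before *caup* and none before *ara*, *mirr* or *Ptp69D*, and was present in 41.0% of all windows. These are matches of letters within 10-kb bins and say nothing about binding.

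The first comparison was the contact inside the en-inv window. It is given as the mean, over the 120 bin pairs at least 20 kb apart, of contact divided by the mean of all interior pairs of 2R at the same distance. This value was 1.16 (1.15 to 1.17) in HP1-KD, 1.25 (1.23 to 1.27) in HP1-rescue, 1.20 (1.18 to 1.22) in H3K9M and 1.25 (1.24 to 1.26) in control embryos. In S2 cells it was 1.67 (1.63 to 1.70) with dsRNA 1 and 1.76 (1.73 to 1.79) with dsRNA 2, and 1.70 (1.66 to 1.73) in the control. Contact inside the window was above the arm mean in all 7 maps and higher in each S2 map than in any embryo map.

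The log2 ratio to control embryos was -0.10 (-0.12 to -0.08) for HP1-KD, 0.01 (-0.02 to 0.03) for HP1-rescue and -0.06 (-0.09 to -0.04) for H3K9M. Against the S2 control it was -0.03 (-0.07 to 0.02) with dsRNA 1 and 0.05 (0.01 to 0.09) with dsRNA 2. The difference between the cell sources was larger, at 0.44 (0.41 to 0.47) for S2 control over control embryos. To place these values, 2R was divided into 119 tiles of the same length. A change of 1.2-fold or more in either direction was seen in 22.7% of tiles for HP1-KD, 0% for HP1-rescue, 0% for H3K9M, 1.68% for dsRNA 1, 0% for dsRNA 2 and 42% for S2 control against control embryos. Only the last of these 6 differences of the en-inv window was past 1.2-fold, and it ranked 6 of 119 tiles from the highest.

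The HP1-KD map was flatter than the control map along the whole arm. Its middle 90% of tiles spanned 0.74 to 1.31, against 0.57 to 1.56 in control embryos. The en-inv window ranked 23 of 119 in HP1-KD and 25 of 119 in control embryos, so its place among the tiles hardly differed while its value did. How far this arm-wide narrowing contributes to the difference of the window was not tested. H3K9M embryos spanned 0.64 to 1.50 and HP1-rescue embryos 0.63 to 1.46.

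The whole window includes *Prip*, *qvr*, *E(Pc)* and part of *tou* beside the stretch between *E(Pc)* and *tou*, which forms the square of high values in the contact maps. Over the 10 bins lying wholly between these genes, 11470001 to 11570000, contact over expected was 1.49 in HP1-KD, 1.82 in HP1-rescue, 1.70 in H3K9M and 1.87 in control embryos. It was 2.30 with dsRNA 1 and 2.45 with dsRNA 2, and 2.35 in S2 control. This stretch was picked after the values were seen. Its log2 ratio to control was -0.33 (-0.35 to -0.31) for HP1-KD, -0.04 (-0.07 to -0.01) for HP1-rescue and -0.14 (-0.17 to -0.12) for H3K9M embryos. The HP1-KD difference was thus larger than over the whole window, while S2 control over control embryos was 0.33 (0.29 to 0.37), below its whole-window value.

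**Figure D1:**
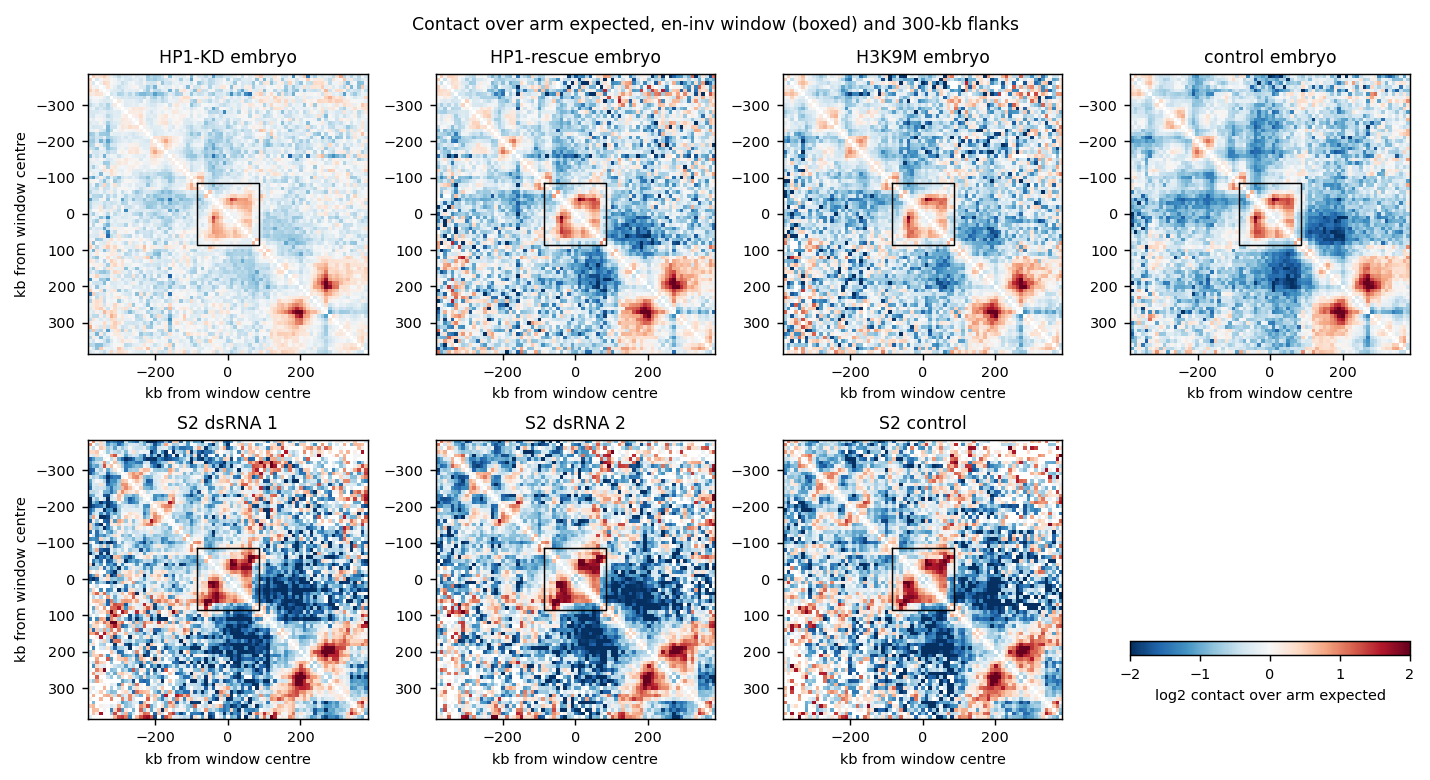
Contact over arm expected (log2 colour scale, red above and blue below the arm mean) for every pair of 10-kb bins in the en-inv window and its 300-kb flanks, both axes in kb from the window centre, 1 panel per map. The boxed window holds a red square in all 7 maps, with a mean of 1.16 in HP1-KD and 1.25 in control embryos and 1.70 in S2 control.

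Distance within the window separated embryos from S2 cells. Between pairs 20 to 40 kb apart, contact over expected was 1.11 in HP1-KD, 1.16 in HP1-rescue, 1.13 in H3K9M and 1.16 in control embryos, and 1.18, 1.23 and 1.24 in S2 dsRNA 1, dsRNA 2 and control cells. At 50 to 90 kb it was 1.26 in HP1-KD, 1.43 in HP1-rescue, 1.34 in H3K9M and 1.44 in control embryos, and 1.91, 2.05 and 1.96 in the same order of S2 maps. The separation was widest at 100 to 160 kb, where the 4 embryo maps had 1.03 to 1.08 and the 3 S2 maps 1.91 to 2.02. Each of those longest pairs has at least 1 bin outside the 10 bins between *E(Pc)* and *tou*, and in embryos their contact was close to the arm mean. The HP1-KD difference was found at 50 to 90 kb, with a log2 ratio of -0.20, and was -0.07 at 20 to 40 kb and 0.07 at 100 to 160 kb. The mean contact of 2R itself was lower in HP1-KD embryos by a log2 ratio of -0.37 at 20 to 40 kb and -0.26 at 50 to 90 kb, and equal (0.00) at 100 to 160 kb.

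The start bins of *inv* and *en* were each other's strongest partner in all 7 maps. This holds among bins 50 kb or more away in the window and its 300-kb flanks, as nearer bins were not ranked. Their single bin pair, 50 kb apart, held 1249 whole contacts in HP1-KD, 705 in HP1-rescue, 741 in H3K9M and 4176 in control embryos, and 525, 587 and 413 in S2 dsRNA 1, dsRNA 2 and control cells. Over expected this was 2.67 (2.53 to 2.82) in HP1-KD, 4.23 (3.92 to 4.55) in HP1-rescue, 3.86 (3.59 to 4.15) in H3K9M and 4.55 (4.41 to 4.69) in control embryos. With dsRNA 1 it was 7.30 (6.69 to 7.95) and with dsRNA 2 7.51 (6.92 to 8.15), and 6.58 (5.96 to 7.25) in S2 control. Among 2023 pairs of 2R at that distance, it ranked 1 in control embryos, 3 in HP1-KD embryos and 2 in each of the other 5 maps. The pair above it in those 5 maps, between a bin without an annotated protein-coding start at 13060001 and the bin of the *CG13325* start at 13110001, was noticed only after ranking and held fewer whole contacts (96 to 264 in those maps).

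The *inv* and *en* contact was lower in HP1-KD than in control embryos by a log2 ratio of -0.77 (-0.86 to -0.68), or -0.49 with 3 by 3 bins, and in H3K9M embryos by -0.24 (-0.35 to -0.12). In HP1-rescue embryos the ratio was -0.11 (-0.22 to 0.01), an interval that includes no difference, and -0.32 without balancing. In S2 cells it was 0.15 (-0.04 to 0.33) with dsRNA 1 and 0.19 (0.01 to 0.37) with dsRNA 2, and for dsRNA 2 it was -0.032 without balancing. S2 control exceeded control embryos by 0.53 (0.39 to 0.68), or by 0.28 without balancing. Even where it was lowest, in HP1-KD embryos, this contact was above the 95th percentile of pairs at its distance, which was 1.60.

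From each gene start the contacts were followed into the window and out of it. The *inv* start bin had a mean contact with its window of 1.47 in HP1-KD, 1.82 in HP1-rescue, 1.75 in H3K9M and 1.90 in control embryos, and of 2.44, 2.55 and 2.45 in S2 dsRNA 1, dsRNA 2 and control cells. With the 300 kb to its left it had 0.67 in HP1-KD, 0.55 in HP1-rescue, 0.48 in H3K9M and 0.47 in control embryos. The *en* start bin had 1.28 in HP1-KD, 1.50 in HP1-rescue, 1.36 in H3K9M and 1.53 in control embryos with the window. With the right flank it had 0.76 in HP1-KD, 0.57 in HP1-rescue, 0.66 in H3K9M and 0.45 in control embryos. Both starts thus had less contact inside and more outside the window in HP1-KD than in control embryos. Among bins 50 kb or more away, the second strongest partner of *inv* was the neighbouring bin upstream of *en*, at 11530001, in all 7 maps. That of *en* was the bin at 11460001 with the end of *E(Pc)*, at 1.38 in HP1-KD and 2.02 in control embryos and 4.11 in S2 control.

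**Figure D2:**
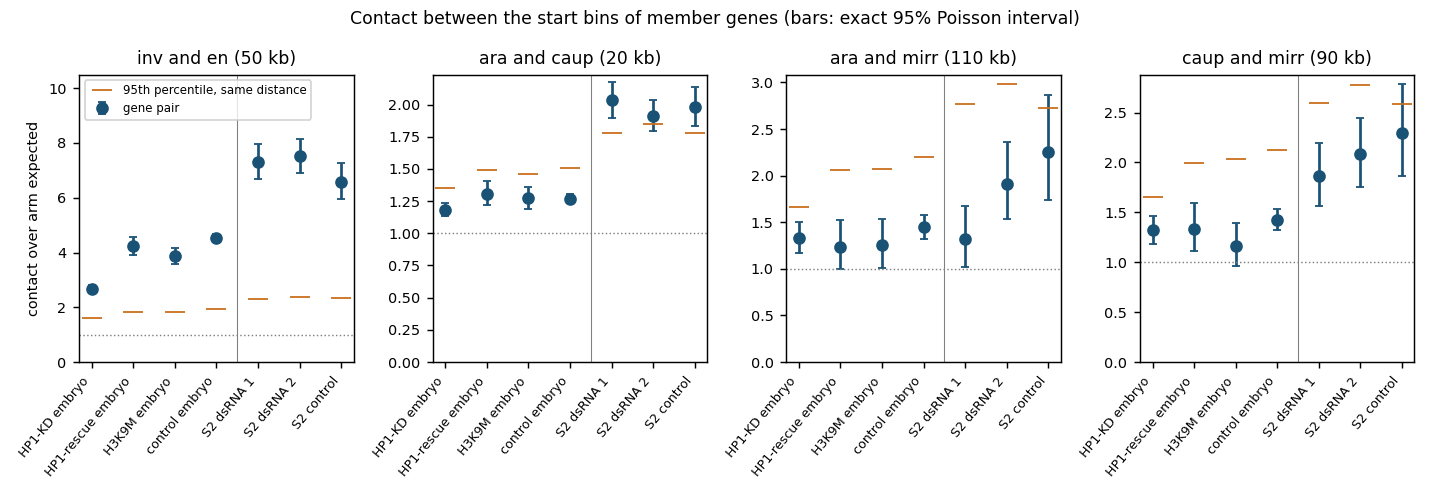
Contact over arm expected between the start bins of member genes (vertical axis) in each map (horizontal axis), with exact 95% Poisson intervals, and orange marks at the 95th percentile of pairs at the same distance on the arm. The inv and en pair stands above that mark in all 7 maps, at 2.67 in HP1-KD and 4.55 in control embryos.

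Edges were measured as the depth of the drop in log2 contact across a position (mean contact between the 100 kb on either side) relative to positions 100 kb away, so that a larger value is a stronger separation. The right edge of the en-inv window, in *tou*, was 0.60 (HP1-KD), 1.26 (HP1-rescue) and 0.97 (H3K9M) deep, and 1.23 in control embryos. In S2 cells it was 1.12 with each dsRNA and 1.04 in the control. The left edge was shallower, at 0.28 (HP1-KD), 0.30 (HP1-rescue) and 0.35 (H3K9M), and 0.31 in control embryos, with 0.51 (dsRNA 1) and 0.60 (dsRNA 2) in treated S2 cells and 0.60 in S2 control. At the right edge HP1-KD differed from control embryos by -0.63 (-0.67 to -0.60) and H3K9M by -0.26 (-0.32 to -0.20), while HP1-rescue differed by 0.03 (-0.03 to 0.10). At the left edge HP1-KD differed by -0.04 (-0.06 to -0.01), H3K9M by 0.04 (0.00 to 0.08) and HP1-rescue by -0.01 (-0.04 to 0.03).

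The left edge of the window was not the place of the drop. All 7 maps had a local minimum at 11450000, 20 kb inside the edge, where *qvr* ends and *E(Pc)* starts, and its depth was 0.49 in HP1-KD, 0.65 in HP1-rescue, 0.71 in H3K9M and 0.70 in control embryos, and 0.60, 0.69 and 0.71 in S2 dsRNA 1, dsRNA 2 and control cells. The 3 S2 maps had a deeper one at 11390000, 40 kb outside the edge, with 0.77 (dsRNA 1), 0.79 (dsRNA 2) and 0.95 (control). There dsRNA 1 differed from S2 control by -0.17 (-0.25 to -0.10) and dsRNA 2 by -0.16 (-0.23 to -0.08). On the right, the nearest local minimum was at 11600000 in all 4 embryo maps and at 11580000, just inside the lower-coordinate end of *tou* at 11577485, in all 3 S2 maps. The same side of the domain thus had its minimum 20 kb closer to *en* in the S2 maps, but depths at 11580000 and 11600000 were close there. They were 1.06 and 1.12 with dsRNA 1, 1.16 and 1.12 with dsRNA 2, and 1.04 at both in S2 control. Whether the shift in position exceeds counting error was not tested. The mean depth of both edges differed by -0.34 (-0.36 to -0.31) between HP1-KD and control embryos, ranking 113 of 117 tiles from the highest, where 90% of tiles lay between -0.30 and 0.26. As a level, the mean depth ranked 6 of 117 in HP1-KD and 5 of 117 in control embryos, so its place hardly differed. The middle 90% of tile levels spanned -0.35 to 0.43 in HP1-KD and -0.61 to 0.70 in control embryos. The part of this narrowing in the difference was not tested.

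**Figure D3:**
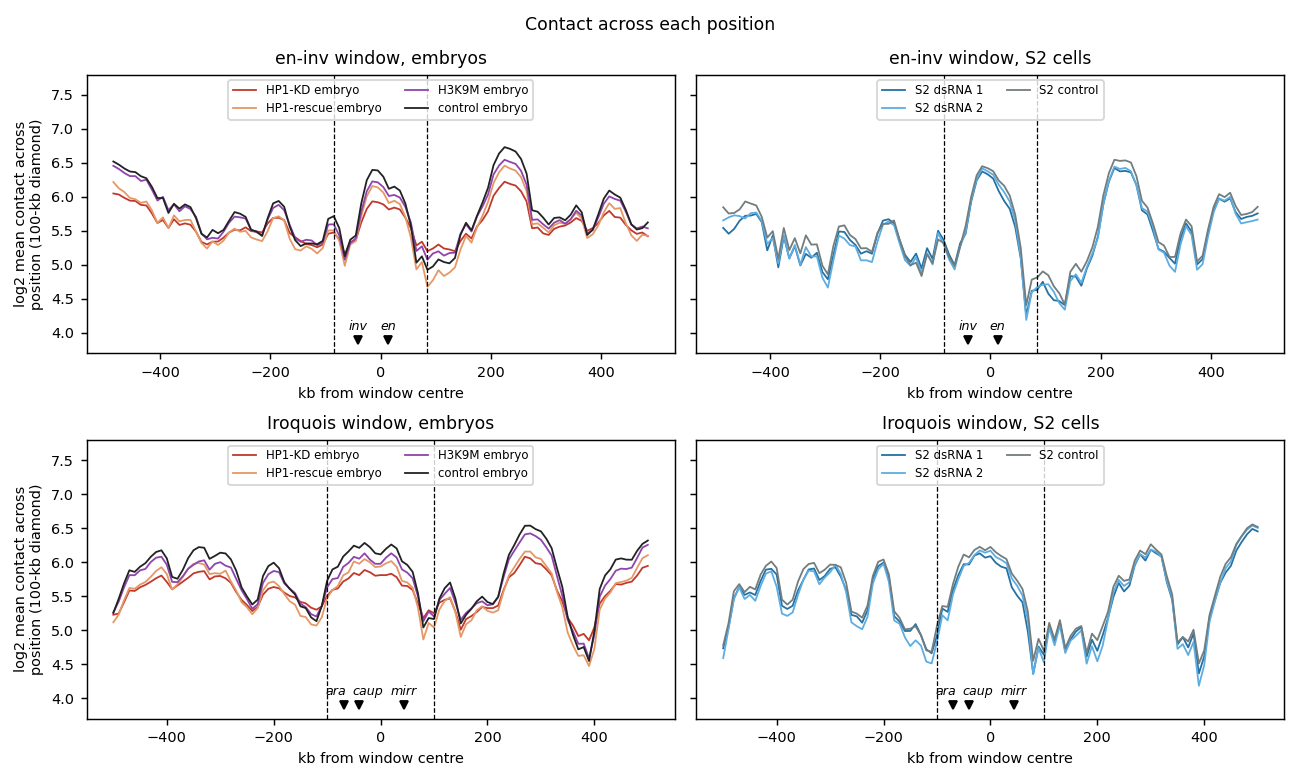
Log2 mean contact across each bin boundary, from the 100 kb on either side (vertical axis), against distance in kb from the window centre, with window edges dashed and triangles at the annotated starts of the members. The HP1-KD curve is the shallowest of the embryo maps at the right edge of the en-inv window (depth 0.60, with 1.23 in control embryos), and the 3 S2 curves run close together.

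The en-inv window made less contact with its surroundings than the arm mean in all 7 maps. With the 300 kb on both sides, contact over expected was 0.83 in HP1-KD, 0.69 in HP1-rescue, 0.70 in H3K9M and 0.61 in control embryos. This contact ranked 109 of 116 tiles from the highest in HP1-KD and 114 of 116 in control embryos. With dsRNA 1 it was 0.68, with dsRNA 2 0.66, and in S2 control 0.66. The log2 ratio to control embryos was 0.43 (0.41 to 0.45) for HP1-KD, 0.18 (0.14 to 0.21) for HP1-rescue and 0.19 (0.16 to 0.22) for H3K9M. All 3 were positive and their intervals did not include 0. Of 116 tiles, these differences ranked 5, 9 and 4 from the highest. In S2 cells both ratios had intervals that included 0, at 0.04 (-0.02 to 0.11) with dsRNA 1 and -0.01 (-0.07 to 0.06) with dsRNA 2.

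The sides of the en-inv window were unequal. With the right flank the HP1-KD ratio was 0.58 (0.55 to 0.61) and with the left flank 0.29 (0.27 to 0.32). For H3K9M these were 0.31 (0.26 to 0.35) and 0.09 (0.04 to 0.13), and for HP1-rescue 0.19 (0.15 to 0.24) and 0.16 (0.12 to 0.21). S2 control, against control embryos, had less contact to the right, at -0.22 (-0.30 to -0.14), and more to the left, at 0.33 (0.27 to 0.40). Contact inside divided by contact with the flanks summarises the separation of the window, and was 1.41 in HP1-KD, 1.81 in HP1-rescue, 1.71 in H3K9M and 2.04 in control embryos, with 2.45 and 2.68 in S2 cells given dsRNA 1 and dsRNA 2 and 2.57 in S2 control.

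The same measures were then taken for the Iroquois window on 3L. Contact inside it, over 171 bin pairs, was 1.19 (1.18 to 1.20) in HP1-KD, 1.31 (1.28 to 1.33) in HP1-rescue, 1.24 (1.22 to 1.27) in H3K9M and 1.32 (1.31 to 1.34) in control embryos. In S2 cells it was 1.44 (1.40 to 1.47) with dsRNA 1 and 1.49 (1.46 to 1.52) with dsRNA 2, and 1.49 (1.45 to 1.53) in the control. It was again above the arm mean in every map, and ranked 18 of 114 tiles in HP1-KD and 16 of 114 in control embryos. The S2 maps were higher than the embryo maps here too, by a smaller margin than in the en-inv window.

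The log2 ratio to control embryos was -0.15 (-0.17 to -0.13) for HP1-KD, -0.02 (-0.05 to 0.01) for HP1-rescue and -0.09 (-0.12 to -0.06) for H3K9M. It was -0.05 (-0.10 to -0.01) with dsRNA 1 and 0.00 (-0.04 to 0.05) with dsRNA 2 against S2 control, and 0.17 (0.13 to 0.21) for S2 control against control embryos. None of these 6 differences reached 1.2-fold. Of the 114 tiles of that length on 3L, 21.1% did for HP1-KD, 0.877% for HP1-rescue, 0.877% for H3K9M, 0% for dsRNA 1, 0% for dsRNA 2 and 33.3% for S2 control against control embryos. The middle 90% of tiles on 3L spanned 0.77 to 1.28 in HP1-KD, against 0.64 to 1.55 in control embryos, and its part in the difference of the window was not tested. Without balancing, the S2 control difference from control embryos was 0.0083.

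In the 15 bins between *sowah* and *SmD1*, picked after the values were seen, contact over expected was 1.24 in HP1-KD, 1.40 in HP1-rescue, 1.32 in H3K9M and 1.41 in control embryos. It was 1.63 and 1.74 with dsRNA 1 and dsRNA 2 and 1.71 in S2 control. The HP1-KD ratio was -0.18 (-0.21 to -0.16) there, and that of S2 control to control embryos 0.28 (0.24 to 0.32). Contact in the Iroquois window was lowest over expected at short distance. At 20 to 40 kb it was 1.13 in HP1-KD and 1.20 in control embryos, at 50 to 90 kb 1.21 and 1.37 in these maps, and at 100 to 190 kb 1.23 and 1.38. The HP1-KD log2 ratios were -0.09, -0.18 and -0.17 in the order of distance. In S2 control the 3 values were 1.34, 1.56 and 1.55.

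**Figure D4:**
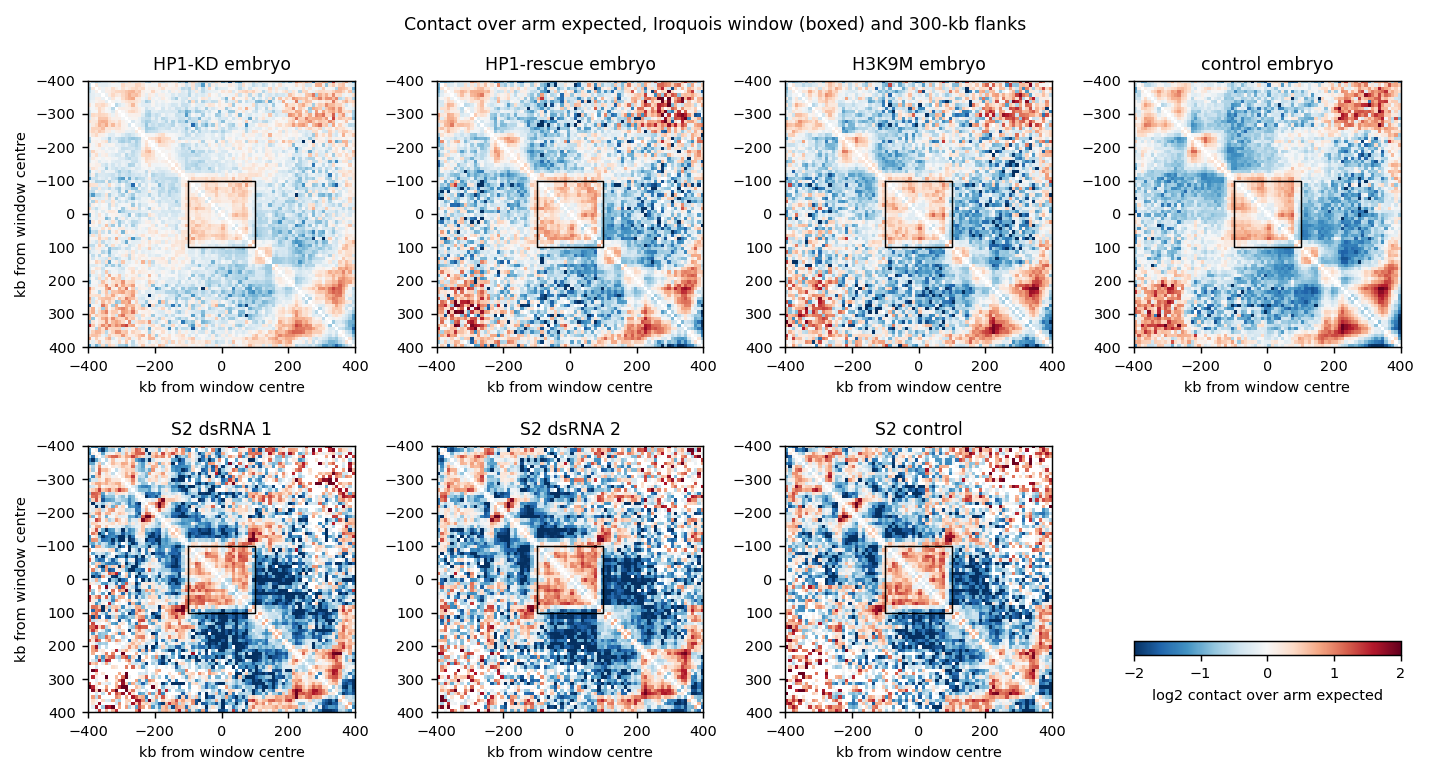
Contact over arm expected (log2 colour scale, red above and blue below the arm mean) for every pair of 10-kb bins in the Iroquois window and its 300-kb flanks, both axes in kb from the window centre, 1 panel per map. The boxed window has a mean of 1.19 in HP1-KD and 1.32 in control embryos and 1.49 in S2 control. In its bins between sowah and SmD1 the mean is 1.24, 1.41 and 1.71 in the same order.

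No pair of Iroquois genes stood out in embryos as *inv* and *en* did. *ara* and *caup*, whose start bins are 20 kb apart, had 1.18 (1.13 to 1.24) in HP1-KD, 1.31 (1.22 to 1.40) in HP1-rescue, 1.27 (1.19 to 1.36) in H3K9M and 1.27 (1.23 to 1.31) in control embryos, where the pair ranked 358 of 2279 at its distance. In S2 cells the same pair had 2.03 (1.90 to 2.17) with dsRNA 1 and 1.91 (1.79 to 2.04) with dsRNA 2, and 1.98 (1.83 to 2.14) in the control, at rank 60. This was above the 95th percentile in each S2 map and below it in each embryo map. The log2 ratio of HP1-KD to control embryos was -0.10 (-0.18 to -0.02) and that of S2 control to control embryos 0.64 (0.52 to 0.76).

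*mirr*, the most distant of the 3 genes, met *ara* at 110 kb and *caup* at 90 kb. *ara* and *mirr* had 1.33 (1.17 to 1.50) in HP1-KD and 1.45 (1.32 to 1.58) in control embryos, a log2 ratio of -0.12 (-0.34 to 0.09). *caup* and *mirr* had 1.32 (1.19 to 1.47) in HP1-KD and 1.42 (1.32 to 1.53) in control embryos, a ratio of -0.11 (-0.29 to 0.08). At 255 and 347 whole contacts in the HP1-KD map, differences of that size could not be separated from counting error. In S2 control the values were 2.25 (1.74 to 2.86) for *ara* and *mirr* and 2.29 (1.86 to 2.79) for *caup* and *mirr*, above control embryos by 0.64 (0.27 to 1.01) and 0.69 (0.38 to 0.99), and with 3 by 3 bins the *ara* and *mirr* excess was 0.21.

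In S2 cells given dsRNA 1 the *ara* and *mirr* value was lower, 1.32 (1.02 to 1.67) from 67 whole contacts, against 2.25 from 66 in the S2 control, a log2 ratio of -0.77 (-1.26 to -0.28). With 3 by 3 bins the ratio was 0.058. The mean contact of the *mirr* start bin with the window was 1.20 with dsRNA 1 and 1.50 with dsRNA 2, and 1.69 in the S2 control, a ratio of -0.49 (-0.62 to -0.36) for dsRNA 1 that became 0.04 on whole contacts without balancing. The *ara* start bin had 1.27 in HP1-KD, 1.37 in HP1-rescue, 1.30 in H3K9M and 1.41 in control embryos with the window, and the *caup* start bin 1.19, 1.34, 1.24 and 1.29 in the same order. For *mirr* these were 1.25, 1.41, 1.31 and 1.38. In HP1-KD embryos the ratio to control was -0.16 for *ara*, -0.11 for *caup* and -0.15 for *mirr*.

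Both edges of the Iroquois window were shallower in HP1-KD than in control embryos. Their mean depth differed by -0.20 (-0.22 to -0.17), ranking 99 of 110 tiles from the highest. Unlike that of the en-inv window, this difference was inside the range of -0.31 to 0.32 that held most tiles of its arm. As a level, the mean depth ranked 15 of 110 tiles in HP1-KD and 15 of 110 in control embryos. The left edge had a depth of 0.22 in HP1-KD, 0.35 in HP1-rescue, 0.29 in H3K9M and 0.33 in control embryos. The right edge had 0.32 in HP1-KD, 0.57 in HP1-rescue, 0.47 in H3K9M and 0.60 in control embryos. Differences from control were -0.11 (-0.14 to -0.08) on the left and -0.28 (-0.31 to -0.25) on the right for HP1-KD, -0.03 (-0.07 to 0.01) and -0.13 (-0.17 to -0.08) for H3K9M, and 0.02 (-0.02 to 0.07) and -0.03 (-0.07 to 0.02) for HP1-rescue. In S2 cells the left edge was 1.12 deep with dsRNA 1 and 1.24 with dsRNA 2, and 1.07 in the control, an excess of S2 control over control embryos of 0.74 (0.68 to 0.81).

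The drops lay a little off the window edges. On the left the lowest contact across a position was at 12530000 in the 4 embryo maps, in a cluster of genes around *Pmm2* and the end of *sowah*, and at 12540000 in the 3 S2 maps. On the right the nearest local minimum was at 12730000, before *SmD1*, in all 7 maps. A further minimum, at 12800000 in embryos and 12790000 in S2 cells, was deeper in each map except dsRNA 1. Measured at 12530000 and 12730000, the HP1-KD difference was -0.49 (-0.52 to -0.46) on the left and -0.40 (-0.43 to -0.37) on the right, and the H3K9M difference -0.21 (-0.26 to -0.17) and -0.20 (-0.24 to -0.15). HP1-rescue differed by -0.15 (-0.20 to -0.11) on the left and 0.00 (-0.05 to 0.05) on the right. The right minimum was 0.38 deep in HP1-KD, 0.78 in HP1-rescue, 0.59 in H3K9M and 0.78 in control embryos, with 1.01 and 0.99 in S2 cells given dsRNA 1 and dsRNA 2 and 0.90 in S2 control.

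Contact of the Iroquois window with its 300-kb flanks was 0.86 in HP1-KD, 0.74 in HP1-rescue, 0.77 in H3K9M and 0.70 in control embryos. This contact ranked 98 of 112 tiles from the highest in HP1-KD and 99 of 112 in control embryos. With dsRNA 1 it was 0.67, with dsRNA 2 0.62, and 0.63 in S2 control. The log2 ratio to control embryos was 0.30 (0.28 to 0.33) for HP1-KD, 0.08 (0.05 to 0.12) for HP1-rescue and 0.14 (0.10 to 0.18) for H3K9M, ranking 9, 29 and 7 of 112 tiles from the highest. For HP1-KD it was 0.27 (0.24 to 0.30) with the left flank and 0.35 (0.31 to 0.38) with the right. S2 ratios were 0.08 (0.00 to 0.15) with dsRNA 1 and -0.03 (-0.10 to 0.05) with dsRNA 2, and the dsRNA 1 ratio was -0.014 with flanks of 150 kb. Contact inside over contact with flanks was 1.39 in HP1-KD, 1.77 in HP1-rescue, 1.62 in H3K9M and 1.90 in control embryos, with 2.15 and 2.40 in S2 cells given dsRNA 1 and dsRNA 2 and 2.35 in S2 control.

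**Figure D5:**
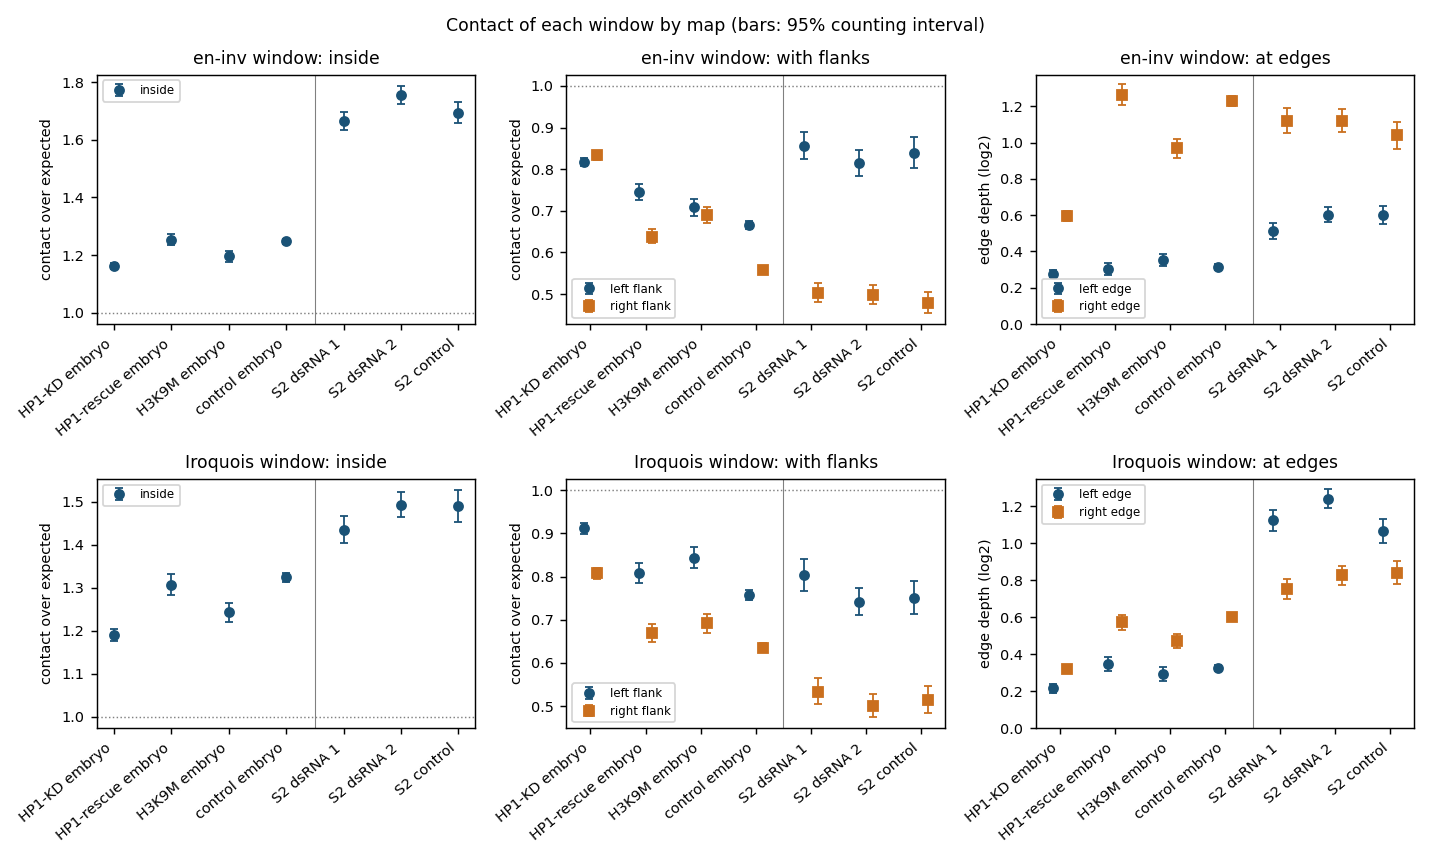
Contact inside each window, contact with the left and right 300-kb flanks (both over arm expected) and depth of the left and right edges (log2) in each map on the horizontal axis, with 95% counting intervals. HP1-KD embryos have the lowest value inside and the highest with the flanks among embryo maps for both windows (0.83 for en-inv and 0.86 for Iroquois with both flanks, with 0.61 and 0.70 in control embryos).

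Polycomb targets can meet over long distances, so the windows were also compared with each other and with 25 other Polycomb target genes. The en-inv and Iroquois windows lie on different chromosomes, and their 340 bin pairs held 97 whole contacts in HP1-KD, 40 in HP1-rescue, 51 in H3K9M and 204 in control embryos. Over the mean of 2R and 3L this was 1.13 (0.91 to 1.37) in HP1-KD, 1.31 (0.94 to 1.79) in HP1-rescue, 1.61 (1.20 to 2.12) in H3K9M and 1.30 (1.13 to 1.49) in control embryos. The S2 maps held 14 to 28 contacts and their intervals included 1. Only the H3K9M and control embryo maps had intervals above 1, and no embryo map's interval was separate from that of control embryos.

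Of the list, 22 genes lie on other arms than each window. The median contact of the en-inv window with them was 1.47 times the mean of the arm pair in HP1-KD, 1.32 in HP1-rescue, 1.28 in H3K9M and 1.65 in control embryos. The median over all 864 regions of the same width on those arms was 0.83 in HP1-KD and 0.83 in control embryos. Intervals lay above 1 for 14 of 22 genes in HP1-KD and 17 of 22 in control embryos, where 20.9% and 31.1% of all such regions did. In S2 cells the median was 0.77 with dsRNA 1, 0.74 with dsRNA 2 and 0.92 in the control, against 0.84, 0.83 and 0.83 over all regions. The list median was above that of all regions in these embryo maps and on either side of it in the S2 maps. Without the 7 list genes on 2L, the arm of the inversion, the median over the other 15 was 1.50 in HP1-KD, 1.30 in HP1-rescue, 1.16 in H3K9M and 1.65 in control embryos.

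For the Iroquois window the median over the 22 genes was 1.15 in HP1-KD, 1.28 in HP1-rescue, 1.23 in H3K9M and 1.18 in control embryos. It was 0.87 with dsRNA 1, 0.84 with dsRNA 2 and 0.80 in S2 control. Over all 840 regions the median was 0.87 in HP1-KD, 0.81 in HP1-rescue, 0.84 in H3K9M and 0.82 in control embryos. In S2 cells it was 0.85 with dsRNA 1, 0.87 with dsRNA 2 and 0.84 in the control, close to the list medians. Intervals lay above 1 for 9 of 22 genes in HP1-KD and 11 of 22 in control embryos, where 18.9% and 25.8% of 840 regions did. Contact between arms also depends on where along an arm a gene lies. Against the bins up to 1 Mb around each gene, a comparison added after the values were seen, the en-inv median was 1.24 in HP1-KD and 1.30 in control embryos, and the Iroquois median 1.20 and 1.18 in these maps.

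The highest 3 partners of the en-inv window in control embryos were *Antp*, a homeotic gene, *nub*, a wing gene, and *ems*, which patterns the head. *Antp* had 1.93 (1.52 to 2.41) in HP1-KD, 1.70 (1.07 to 2.57) in HP1-rescue, 1.66 (1.07 to 2.45) in H3K9M and 2.10 (1.77 to 2.47) in control embryos. *nub* had 1.44 (1.20 to 1.71) in HP1-KD and 2.01 (1.79 to 2.26) in control embryos, and its intervals did not overlap. Neither did those of *cad*, also lower in HP1-KD at 1.01 (0.84 to 1.21) against 1.44 (1.26 to 1.63) in control embryos. *tsh*, at 1.01 (0.83 to 1.22) in HP1-KD against 0.58 (0.47 to 0.70) in control embryos, and *tll*, at 0.56 (0.38 to 0.79) against 0.25 (0.16 to 0.38) in these maps, differed the other way. These 4 of 22 genes, picked after their values were seen, compare with 5.09% of all regions, and *nub*, *cad* and *tsh* lie on 2L. *ems* had 1.50 (1.19 to 1.86) in HP1-KD and 2.01 (1.74 to 2.30) in control embryos. In HP1-rescue embryos the homeotic genes *Ubx*, at 2.29 (1.54 to 3.27), and *abd-A*, at 2.15 (1.49 to 3.00), were above these 3, and in H3K9M embryos *salm*, at 1.90 (1.46 to 2.43). In S2 cells *wg*, *tll* and *B-H1* were above them with dsRNA 1, *wg* with dsRNA 2 and *Dll* and *dac* in the control, on 6 to 25 whole contacts each. *eve*, on the same arm as the window, was above them in all 3 S2 maps, on 143 to 197 whole contacts.

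For the Iroquois window the highest 3 in control embryos were the homeotic genes *Ubx* and *Abd-B*, and *ems*. *Ubx* had 1.85 (1.57 to 2.18) in HP1-KD, 2.68 (2.11 to 3.36) in HP1-rescue, 1.94 (1.47 to 2.50) in H3K9M and 2.15 (1.91 to 2.41) in control embryos. *Abd-B* had 1.88 (1.63 to 2.17) in HP1-KD and 2.13 (1.92 to 2.36) in control embryos, and *ems* 2.08 (1.81 to 2.38) and 2.07 (1.87 to 2.29) in these maps. Intervals of HP1-KD and control embryos overlapped for these 3 and for the rest of the 22 genes, where 5.6% of regions had separate intervals. No other list gene was above them in an embryo map, whereas in at least 1 S2 map *Antp*, *B-H1*, *D*, *Doc1*, *ct*, *hth*, *salm*, *tll* and *wg* were. Of these, *Doc1*, on the same arm, reached 1.39 (1.14 to 1.68) with dsRNA 1 and 1.09 (0.85 to 1.37) in S2 control. *ct*, on X, reached 1.75 (1.07 to 2.70) with dsRNA 2, on 20 whole contacts.

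On its own arm the contact of the en-inv window with *eve*, a pair-rule gene, was higher over expected in S2 cells than in embryos. Contact over expected was 1.53 (1.31 to 1.76) with dsRNA 1, 1.60 (1.38 to 1.84) with dsRNA 2 and 1.58 (1.33 to 1.86) in S2 control. It was 1.04 (0.99 to 1.08) in HP1-KD, 0.77 (0.69 to 0.85) in HP1-rescue, 0.97 (0.87 to 1.07) in H3K9M and 0.96 (0.90 to 1.01) in control embryos. *Dll* and *vg*, the other list genes on 2R, had 1.25 and 0.92 in HP1-KD and 1.06 and 0.84 in control embryos. The share of other 2R regions with such values was not taken.

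The compartment side of the windows could be read only in part. The first eigenvector of each arm at 40 kb, signed so that gene-rich bins are positive, correlated with gene density at 0.51 to 0.57 across bins in the S2 maps but at 0.06 to 0.31 in the embryo maps, where it did not separate gene-rich from gene-poor chromatin well. All 4 bins of the en-inv window were positive in HP1-KD, H3K9M and control embryos and in the 3 S2 maps, where 8.82% (HP1-KD), 51.8% (H3K9M), 9.22% (control embryos) and 23.9% to 29.6% (S2) of 2R bins were negative. In HP1-rescue embryos 2 of 4 were negative, as were 76.1% of 2R bins. All 5 bins of the Iroquois window were positive in the 4 embryo maps, where 50.6% to 58.8% of 3L bins were negative. Of these 5 bins, 2, 3 and 1 were negative in S2 dsRNA 1, dsRNA 2 and control cells, with 33.2%, 35.6% and 26.9% of 3L bins.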

How the data were processed

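Hi-C libraries were made from 23 samples by DpnII digestion, biotin fill-in and ligation. Per the labels, reads were processed with HiC-Pro 2.11.1 against dm6, and the aligner settings and read filters were not given in the sources used here. For each group the authors merged its libraries into 1 map at 10 kb, whose signal was deposited after iterative correction, so that all bins carry an equal total. A whole map adds up to about 50000000. The deposited bin table, of other values, gives coordinates. Whether every HP1-KD library entered its pool is not clear from the map's name, and the S2 control map was assigned by name.

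Whole contacts were recovered by solving 1 factor per bin. Of low values 99.9% to 100% came out whole within 0.02. Expected contact is the mean of interior pairs of the same arm, without pericentromeric bins (a repeat-masked share of 30% or more), at the same distance. Of 13256 bins on the long arms 13037 had a factor in every map, and the 11568 of these outside pericentromeric stretches were used. Contact inside a window used pairs 20 kb or more apart, edge depth a 100-kb diamond, flanks 300 kb and list genes 50 kb to either side of their start. Tiles were aligned to the window, with at least 80% of their bins used. No test was made, as each group is 1 map. No pseudocount was used. The members, windows and gene lists were chosen with earlier results of these data known. Genes named are the members, the genes in or at the edges of the windows, the 3 list genes with the highest contact with each window in control embryos, and list genes that exceeded these 3 in another map; *vg*, *cad*, *tsh* and *CG13325* were named after their values were seen. Measures were tested on simulated data, where 57 to 60 of 60 intervals held the true value. These data had counting error only and known bin factors, so error from balancing was not covered. Gene positions are from Ensembl annotation of the same assembly. Alternatives were equal depth, no balancing, other distances, windows, flanks and diamonds, and expected values from 5 arms. The software was matplotlib 3.10.9, pandas 2.3.3, scipy 1.17.1 and numpy 2.4.6 under Python 3.11.15.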

Additional observations from a re-analysis of the deposited data

How the results depend on the processing

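No paired analysis was possible because each group is 1 pooled map and no test was made, and for the same reason no replicate could be left out. Of 204 alternative values of contact inside, edge depth and flank contact, 131 moved by less than the counting error of the value given and 67 by more. The other 6 changed sign from a value whose interval excluded 0, and only these are called reversed. Values whose interval included 0 also changed sign in places and are not counted among the 6. Contact inside en-inv in HP1-rescue embryos, for example, went from 0.006 to -0.024 at equal depth. Values below are log2 ratios or differences to the control of the same cell source, and S2 control is set against control embryos; the cause of each shift was not tested. At equal depth, contact inside en-inv was -0.12 (HP1-KD), -0.024 (HP1-rescue) and -0.088 (H3K9M), and inside Iroquois -0.12 (HP1-KD). Edge depth was then -0.37 for en-inv and -0.16 for Iroquois, and en-inv flanks 0.41, all for HP1-KD. With windows trimmed by 20 kb, contact inside en-inv was -0.27 (HP1-KD), -0.033 (HP1-rescue), -0.12 (H3K9M) and 0.41 (S2 control), inside Iroquois -0.19 (HP1-KD) and 0.27 (S2 control), and flank contact 0.50 (en-inv, HP1-KD) and -0.22 (Iroquois, S2 control). With expected values from 5 arms, contact inside en-inv was -0.075 (HP1-KD) and 0.034 (HP1-rescue). Between the flanking genes, a choice made after seeing the data, contact inside en-inv was -0.33 (HP1-KD), -0.040 (HP1-rescue), -0.14 (H3K9M) and 0.33 (S2 control), and inside Iroquois -0.18 (HP1-KD) and 0.28 (S2 control). As a ratio of sums, contact inside was 0.24 (en-inv, S2 control), -0.12 (Iroquois, HP1-KD) and -0.0565 (Iroquois, H3K9M), and at 50 kb or more 0.58 (en-inv, S2 control) and -0.18 (Iroquois, HP1-KD). A 50-kb diamond gave edge depths of -0.25 (HP1-KD), 0.089 (HP1-rescue) and -0.058 (H3K9M) for en-inv and -0.13 (HP1-KD) for Iroquois, and a 200-kb diamond -0.051 (en-inv, HP1-rescue), -0.034 (Iroquois, HP1-rescue) and 0.36 (Iroquois, S2 control). At the positions of lowest contact within 50 kb in the control maps, edge depth was -0.42 (HP1-KD), -0.079 (dsRNA 1), -0.0225 (dsRNA 2) and, reversed, -0.089 (S2 control) for en-inv, and -0.45 (HP1-KD), -0.076 (HP1-rescue), -0.20 (H3K9M) and 0.27 (S2 control) for Iroquois. Flanks of 500 kb gave 0.41 (en-inv, HP1-KD) and 0.22 (HP1-KD), 0.049 (HP1-rescue), 0.084 (H3K9M) and -0.22 (S2 control) for Iroquois. Flanks of 150 kb gave Iroquois 0.28 (HP1-KD), 0.040 (H3K9M), -0.12 (dsRNA 2) and, reversed, -0.014 (dsRNA 1).

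Without balancing, en-inv had edge depths of -0.65 (HP1-KD), -0.29 (H3K9M) and, reversed, -0.17 (S2 control), flank contact of 0.49 (HP1-KD), 0.24 (HP1-rescue) and 0.24 (H3K9M), and, reversed, contact inside of -0.016 (dsRNA 2). Iroquois had contact inside of -0.22 (HP1-KD), -0.16 (HP1-rescue), 0.0615 (dsRNA 2), 0.0083 (S2 control) and, reversed, 0.0146 (dsRNA 1). Its edge depths were -0.25 (HP1-KD), -0.080 (dsRNA 1), 0.41 (S2 control) and, reversed, -0.0246 (dsRNA 2), and its flank contact 0.23 (HP1-KD), 0.017 (HP1-rescue), 0.094 (H3K9M), 0.059 (dsRNA 2) and -0.25 (S2 control). Among gene pairs, *inv* and *en* had -0.49 (HP1-KD) with 3 by 3 bins and, without balancing, -0.32 (HP1-rescue) and 0.28 (S2 control). *ara* and *caup* had -0.21 (HP1-rescue) without balancing and 0.47 (S2 control) with 3 by 3 bins, *ara* and *mirr* 0.21 (S2 control) with 3 by 3 bins, and *caup* and *mirr* 0.16 (dsRNA 1) without balancing. *inv* and *en* with dsRNA 2 reversed to -0.032 without balancing, and *ara* and *mirr* with dsRNA 1 to 0.058 with 3 by 3 bins. In HP1-KD embryos all alternatives run kept the sign for both windows, with -0.33 to -0.075 for contact inside, -0.65 to -0.13 for edge depth and 0.22 to 0.50 for flank contact. Contact between chromosomes rested on 14 to 204 whole contacts for the pair of windows, which limits its precision.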

Other observations

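Beyond the members, contact across positions was also followed to the right of the en-inv window. The nearest local minimum past the right edge lay at 11650000 in HP1-KD embryos and in the 3 S2 maps, at 11640000 in control embryos and at 11630000 in H3K9M embryos, and its depth was 0.80 in HP1-KD, 1.10 in H3K9M and 1.42 in control embryos, and 1.69, 1.83 and 1.86 in S2 dsRNA 1, dsRNA 2 and control cells. The bins around each of these positions hold *atos*, those around 11640000 and 11650000 also *CG9003*, and those around 11650000 further genes. The depths thus come from different positions in different maps, and no such minimum was found in HP1-rescue embryos. Right of the Iroquois window a minimum at 12800000, at *Atg1*, was 0.74 deep in HP1-KD, 0.91 in HP1-rescue, 0.85 in H3K9M and 1.01 in control embryos. The HP1-KD map thus had the shallowest drops of the embryo maps listed at these neighbouring positions too. These positions were picked after their values were seen.

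At 50 kb on 2R the pair with *CG13325* had 4.27 times the expected contact in HP1-KD and 4.53 in control embryos, where *inv* and *en* had 2.67 and 4.55. The *CG13325* pair rested on 509 and 1302 whole contacts in these maps, fewer than the 1249 and 4176 of *inv* and *en*.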
